A study of Mus musculus with 6 samples.

Results

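Interferon regulatory factors are transcription factors that switch on interferon genes and the genes that interferons induce. The 8 members described here are Irf1, Irf2, Irf3, Irf4, Irf5, Irf7, Irf8 and Irf9, taken by symbol from a table of 27507 mouse gene identifiers. The libraries came from L929, a mouse connective tissue fibroblast line, as 3 STING KO samples and 3 control samples. Control samples carry the genotype WT in the labels, which name no agent, treatment or time for either group. They do not say how the knockout was made, whether the KO cells are 1 clone, or whether the replicates are separate cultures. The p-values below therefore reflect the scatter of these 6 samples alone, and that scatter may be technical.

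All members share an amino-terminal DNA-binding domain that reads GAAA repeats in interferon-stimulated response elements, while their carboxy-terminal regions decide how they are activated. IRF3 and IRF7 are latent until kinases such as TBK1 phosphorylate them, and IRF3 is the classical effector of STING, the adaptor that relays cyclic dinucleotide signals from cGAS. IRF1 is controlled mainly by its own transcription, which NF-kB and STAT proteins drive in cells exposed to cytokines. IRF2 occupies the same DNA sites as IRF1 and can oppose it. IRF9 binds DNA for the complex ISGF3, IRF5 acts downstream of MyD88, and IRF4 and IRF8 are best known from lymphoid and myeloid cells.

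The DNA just upstream of Irf1, Irf2 and Irf3 is printed to compare the member that changed with its closest antagonist and with the factor that STING activates. Each line is the 250 bases before a RefSeq start site in GRCm38.p6, 5′ to 3′ on the plus strand, for Irf1 at chr11:53769764-53770013, Irf2 at chr8:46739495-46739744 and Irf3 at chr7:44997398-44997647. Capitals mark matches, on either strand, to 3 motifs. These are the STAT-binding GAS motif TTCNNNGAA, the response element core GAAANNGAA read by IRF proteins, and the kB consensus of NF-kB.
Irf1: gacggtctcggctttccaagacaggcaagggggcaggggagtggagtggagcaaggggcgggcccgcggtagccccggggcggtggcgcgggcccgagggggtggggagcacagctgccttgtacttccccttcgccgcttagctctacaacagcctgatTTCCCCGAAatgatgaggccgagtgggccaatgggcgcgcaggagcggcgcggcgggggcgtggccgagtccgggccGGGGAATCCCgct
Irf2: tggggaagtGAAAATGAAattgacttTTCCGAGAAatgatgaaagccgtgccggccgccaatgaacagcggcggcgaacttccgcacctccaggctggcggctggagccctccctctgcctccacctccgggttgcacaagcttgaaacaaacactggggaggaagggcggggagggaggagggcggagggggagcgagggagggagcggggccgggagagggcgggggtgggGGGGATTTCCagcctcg
Irf3: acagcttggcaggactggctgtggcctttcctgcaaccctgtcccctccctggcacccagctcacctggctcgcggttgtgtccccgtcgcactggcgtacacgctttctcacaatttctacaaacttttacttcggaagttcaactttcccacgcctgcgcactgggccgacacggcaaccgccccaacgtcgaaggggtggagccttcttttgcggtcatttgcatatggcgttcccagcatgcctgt

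The upstream sequence of Irf1 held a GAS match, TTCCCCGAA, at positions -90 to -82 from the start and a kB match, GGGGAATCCC, at -13 to -4, while the window of a second RefSeq start of Irf1 held none of the 3 motifs. That of Irf2 held all 3 motifs: the response element core GAAAATGAA at -241 to -233, the GAS match TTCCGAGAA at -224 to -216 and the kB match GGGGATTTCC at -17 to -8. RefSeq windows of 300 bases, from 250 before to 50 after a start, were on hand for all 8 members. Irf8 had GAS matches at -171 to -163 and -153 to -145 in 1 of its windows, and the windows of Irf3, Irf4, Irf5, Irf7 and Irf9 held none of the 3 motifs. Among all 32851 windows of that length, 8.3% held a GAS match, 8.56% a response element core, 8.46% a kB match and 0.639% both a GAS and a kB match. A match is a description of letters and not a bound site.

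Sting1, listed as Tmem173, had 82.1, 80.6 and 93.4 normalized counts in the STING KO libraries, against 329, 313 and 311 in control libraries, so the labels and this RNA point the same way. A normalized count is a gene count divided by 1 size factor per library, and totals were 14382072 to 14526606 per library. Of 14 fibroblast markers, Vim, Fn1, Col1a1 and most others were high in every library, while Dcn ran from 0 to 94.4 and Lum from 0 to 31.8. Dcn was at 32.7 in STING KO replicate 1 and 94.4 in control replicate 3, and Lum at 11.9 and 31.8. In the other libraries Dcn was at most 4.99 and Lum at most 0.998. The 13 hepatocyte markers found in the table summed to 5354 in STING KO replicate 1 and 5581 in control replicate 3, against 305 and 700 in the other STING KO libraries and 266 and 665 in the other control libraries. Calls below that are lost without these 2 libraries are given with that value. Hepatocyte transcripts were present in every library, and the libraries said below to hold them are these 2, with the highest sums.

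Among the 8 genes, Irf1 was lower in STING KO and the other 7 were not called in either direction. Irf1 RNA fell to 72.5% of its control level. Irf2, Irf3 and Irf9, the other well-detected members, stayed within 1.5-fold by their 95% intervals. A gene was called where its limma p, adjusted by Benjamini-Hochberg, did not exceed 0.05 over the 12408 genes with at least 10 normalized counts in at least 3 libraries. All 8 members met that minimum. Of all genes tested, 0.258% were called, all 32 of them lower in STING KO.

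Irf1 (ENSMUSG00000018899, chromosome 11, 53770014 to 53778374, plus strand, GRCm38, protein coding) had 307, 312 and 313 normalized counts in STING KO libraries, against 441, 414 and 429 in control libraries. The groups did not overlap, and the STING KO libraries lay closer together than the control libraries. The coefficient of variation was 1.08% in STING KO and 3.2% in control, where counting alone would give 4.83% in control. The scatter of Irf1 in these libraries may therefore understate its error. The means were 311 ± 3.36 in STING KO and 428 ± 13.7 in control (SD, n = 3 each). The log2 fold change was -0.46 (SE 0.06, limma adjusted p = 0.0217), and its 95% interval put STING KO at 65.6% to 80.3% of control. Irf1 stood 28th by size of change and 25th by p among the 32 called genes, whose median log2 fold change was -0.78. Irf1 shares 135 exon bases with Gm17334, a protein-coding gene on the opposite strand for which no values were given. Strand use in counting is not stated, so reads of Gm17334 there cannot be told apart from those of Irf1.

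The Irf1 call was lost in 4 of 6 fits that left out 1 library. Without STING KO replicate 1 or 2 the limma adjusted p was 0.185 or 0.0761, and without control replicate 1 or 3 it was 0.214 or 0.153. Without both libraries that hold hepatocyte transcripts it was 0.811, with 2 samples per group. The log2 fold change itself ran from -0.49 to -0.44 over the 15 alternatives tried. In the authors' deposited table Irf1 has a log2 fold change of -0.46 and an adjusted p of 0.0174. Its SE there is 0.11, against 0.06 in limma. Of the genes with an adjusted p in the deposited table, 0.294% are called.

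**Figure D1:**
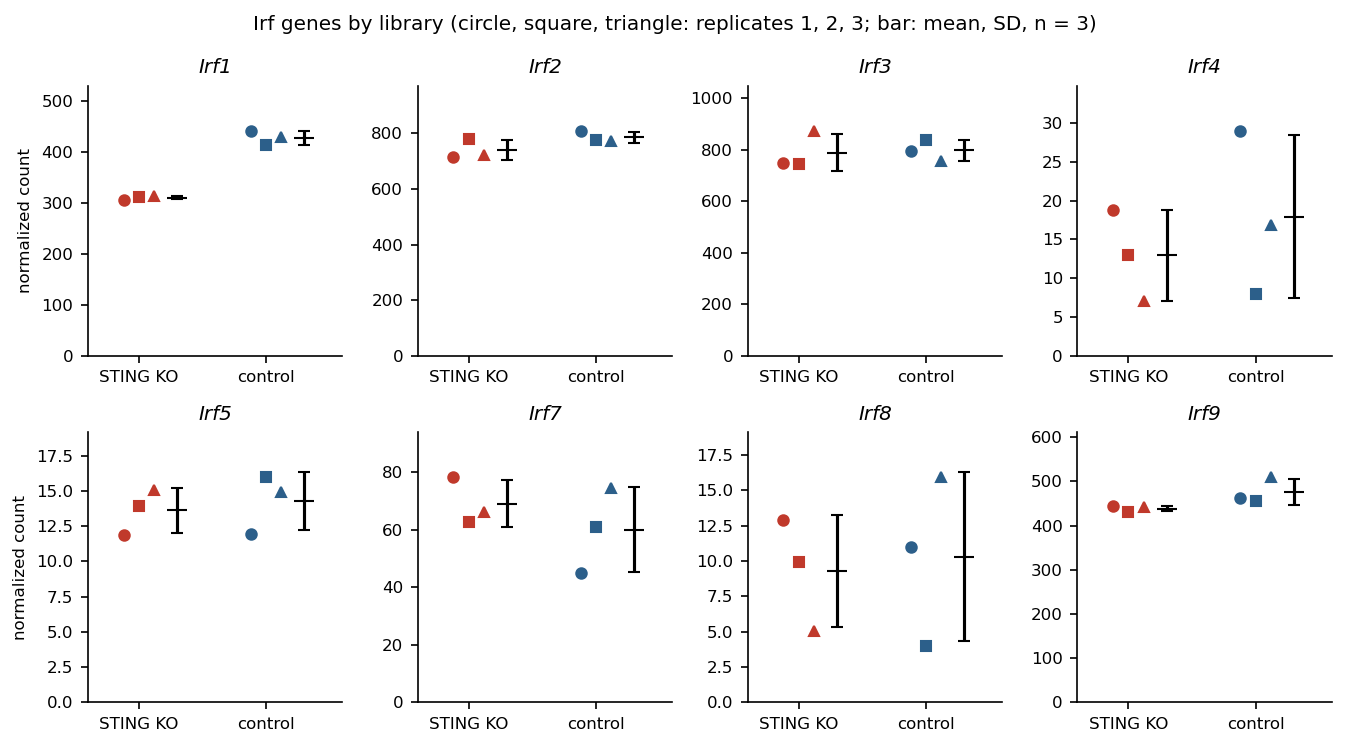
Normalized counts of the 8 Irf genes (vertical axes, each from 0) in each STING KO and control library, with the mean and SD of 3 libraries beside the points. Irf1 is the member whose groups stand clearly apart, at 307 to 313 in STING KO and 414 to 441 in control.

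Irf2, which can occupy IRF1 sites as an antagonist, had 717, 781 and 722 normalized counts in STING KO libraries, against 809, 775 and 773 in control libraries. STING KO replicate 2 lay inside the control range, so the groups overlapped. The means were 740 ± 35.5 in STING KO and 786 ± 20.1 in control (SD, n = 3 each; log2 fold change -0.09, SE 0.06, limma adjusted p = 0.742). The interval of the difference allows 85.7% to 103% of control. The gene lies on chromosome 8 at 46739732 to 46847458 (ENSMUSG00000031627).

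Irf3, the factor that TBK1 phosphorylates when STING is active, had 747, 746 and 873 normalized counts in STING KO libraries, against 797, 839 and 756 in control libraries. The highest library and the lowest library of the 6 were both STING KO, and the groups overlapped. The log2 fold change was -0.02 (SE 0.08, limma adjusted p = 0.946), and the interval allows 87.6% to 111% of control. Irf3 (ENSMUSG00000003184, chromosome 7, 44997648 to 45002848) shares 88 exon bases with Bcl2l12 on the opposite strand, which had 101 ± 8.52 normalized counts in STING KO and 98.6 ± 10.1 in control (SD, n = 3 each).

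Irf7, the interferon-inducible partner of IRF3, was the member with a positive sign. It had 78.2, 62.7 and 66.3 normalized counts in STING KO libraries, against 44.9, 60.9 and 74.5 in control libraries. The control libraries spread over a wider range than the STING KO libraries and overlapped them. The log2 fold change was 0.22 (SE 0.19, limma adjusted p = 0.752), with an interval of 86.6% to 158% of control, and without control replicate 1 it was 0.03. Irf7 (ENSMUSG00000025498, chromosome 7, 141262706 to 141266481, minus strand) shares 45 exon bases with Phrf1 on the other strand, a gene at 1072 ± 40.0 in STING KO and 1084 ± 38.0 in control (SD, n = 3 each).

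Irf9, the DNA-binding subunit of ISGF3, had 443, 431 and 441 normalized counts in STING KO libraries, against 462, 456 and 509 in control libraries. The groups did not overlap, but the gap between them was small beside the spread of the control libraries, and Irf9 was not called (log2 fold change -0.12, SE 0.07, limma adjusted p = 0.738). Irf1 and Irf9 were the 2 members of 8 whose groups did not overlap, which 12.1% of all tested genes showed in either direction and 6.32% showed in the lower direction. Irf9 (ENSMUSG00000002325, chromosome 14, 55603571 to 55610030) shares 123 exon bases on the same strand with Rnf31, an E3 ubiquitin ligase gene. Rnf31 was at 340 ± 6.46 in STING KO and 365 ± 10.02 in control (SD, n = 3 each; limma adjusted p = 0.738), so its reads and those of Irf9 may be partly shared.

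The immune-cell members had few normalized counts. Irf4, a factor of lymphocytes, had 18.8, 12.9 and 7.03 normalized counts in STING KO libraries, against 29.0, 7.98 and 16.9 in control libraries. Irf8, a factor of myeloid cells, had 12.9, 9.96 and 5.02 in STING KO libraries, against 10.98, 3.99 and 15.9 in control libraries. Both groups overlapped for either gene, and the 95% intervals, 34.6% to 168% of control for Irf4 and 40.4% to 234% for Irf8, include a 2-fold decrease for both genes and a 2-fold increase for Irf8. Their limma adjusted p were 0.819 and 0.984.

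Irf5, which acts in Toll-like receptor signalling, had 11.9, 13.9 and 15.1 normalized counts in STING KO libraries, against 11.98, 15.96 and 14.9 in control libraries. The groups overlapped almost fully (log2 fold change -0.06, SE 0.27, limma adjusted p = 0.948). Irf5 shares 411 exon bases on the opposite strand with Tnpo3, a nuclear import receptor gene at 2920 ± 183 in STING KO and 3005 ± 209 in control (SD, n = 3 each). Whether counting used strand is not stated, so in that stretch Irf5 reads and Tnpo3 reads cannot be told apart. Irf4, Irf5 and Irf8 lie on chromosomes 13, 6 and 8.

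Markers of the cells in which Irf4, Irf5 and Irf8 are usually studied were mixed. Ptprc, the pan-leukocyte marker CD45, was at 9.9, 6.97 and 1.0 normalized counts in STING KO libraries, against 13.0, 6.98 and 11.9 in control libraries. Spi1, the PU.1 factor that pairs with IRF4 and IRF8 on DNA, was at 5.94 to 6.97 in STING KO and 3.99 to 6.95 in control, and the B cell marker Ms4a1 was at 0 in all 6 libraries. Other lymphocyte markers were detected: Cd79a, a B cell receptor subunit gene, was at 657 to 749 in STING KO and 601 to 701 in control, and Lck, a T cell kinase gene, at 117 to 121 in STING KO and 91.4 to 117 in control. The 9 lymphocyte markers summed to 834 to 944 in STING KO and 774 to 870 in control, with 1 to 3 of them at 0 in each library. The 14 macrophage and leukocyte markers summed to 1491 to 1708 in STING KO and 1490 to 1724 in control, most of it Cd68 and Cd74, with 1 to 3 markers at 0 in some libraries. STING KO replicate 1 and control replicate 3 had the highest macrophage and leukocyte sums of their groups, but control replicate 3 had the lowest lymphocyte sum, 774. Irf7, Irf8 and Irf9 were also highest of their groups in these 2 libraries. The other members were not highest in both, and Irf2 was lowest of its group in both, at 717 and 773. The part of these 2 libraries in those values was not tested, and without them the log2 fold changes were 0.30 for Irf7 and -0.07 for Irf9, while Irf8 no longer met the minimum count.

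**Figure D2:**
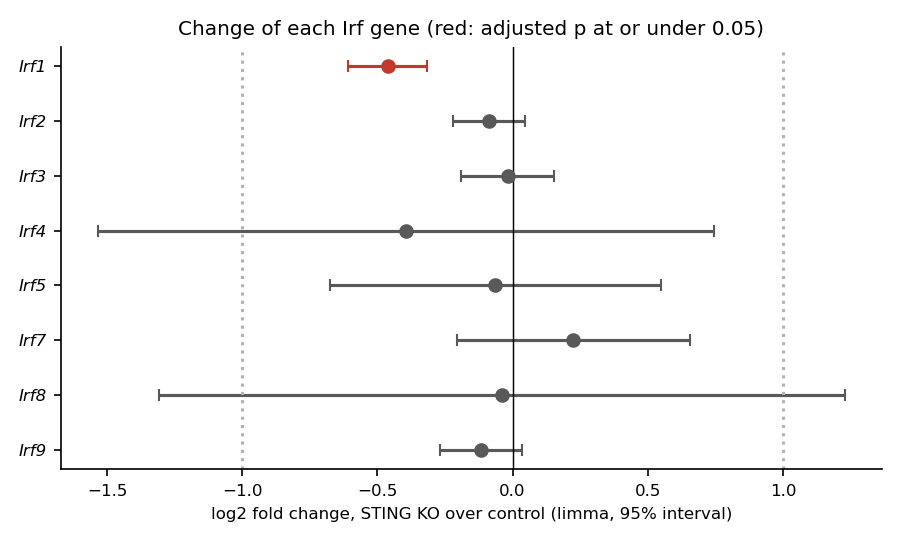
log2 fold change of each Irf gene, STING KO over control (horizontal axis), with the limma 95% interval as bars and dotted lines at 2-fold. The interval of Irf1 lies left of 0, from -0.61 to -0.32, and those of Irf4 and Irf8 reach beyond 2-fold.

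Levels between genes were compared per kilobase of transcript, using the median length of each gene's coding transcripts in the basic GENCODE set. On this scale Irf2 (488 ± 23.4 in STING KO, 518 ± 13.2 in control) and Irf3 (461 ± 42.5 in STING KO, 466 ± 24.2 in control) were highest (SD, n = 3 each). Then came Irf1, at 148 ± 1.61 in STING KO and 205 ± 6.54 in control, and Irf9, at 178 ± 2.64 in STING KO and 193 ± 11.7 in control (SD, n = 3 each). Irf1 lay above Irf9 in the control mean and below it in the STING KO mean, and their ranges over all libraries overlapped. Irf7 followed at 36.0 ± 4.23 in STING KO and 31.4 ± 7.73 in control, and Irf5, Irf8 and Irf4 lay between 1.48 and 7.29 in every library.

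Ranges over the 6 libraries overlapped between Irf2 and Irf3, between Irf5 and Irf8, and between Irf8 and Irf4, so the order within those pairs is not resolved. With the merged exons of each gene as its length, the control order was Irf3 (232 per kilobase), Irf1 (108), Irf2 (106) and Irf9 (88.3), so the place of Irf2 depends on the length used. Irf7 stayed next in line, at 15.9, and the 3 immune-cell members were again last. Irf1 made up 11.2 ± 0.18% of the summed family level per kilobase of coding transcript in STING KO and 14.3 ± 0.42% in control (SD, n = 3 each). The summed normalized count of the 8 genes was 2336 to 2442 in STING KO and 2573 to 2606 in control.

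Irf1 was next set against each other member within the same library, as a ratio with 0.1 added to both normalized counts. Scaling of whole libraries can alter such a ratio only through the added 0.1. Irf1 had been singled out with its decrease known, so these ratios describe how it stood to its relatives and are not independent of that decrease. The ratio of Irf1 to Irf2 was 0.428, 0.399 and 0.434 in STING KO libraries, against 0.546, 0.534 and 0.555 in control libraries. It did not overlap between the groups, with a log2 difference of -0.38 (SE 0.04). The ratio to Irf3 was 0.411, 0.418 and 0.359 in STING KO libraries, against 0.554, 0.494 and 0.568 in control libraries, also without overlap (log2 difference -0.44, SE 0.09). The ratio to Irf9 was 0.692, 0.723 and 0.711 in STING KO libraries, against 0.955, 0.908 and 0.844 in control libraries (log2 difference -0.35, SE 0.05).

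The ratio of Irf1 to Irf7 was 3.92, 4.96 and 4.72 in STING KO libraries, against 9.8, 6.79 and 5.75 in control libraries, a log2 difference of -0.69 (SE 0.25). Ratios to the low member Irf5 were apart as well, at 20.7 to 25.6 in STING KO and 25.8 to 36.5 in control. For these 5 ratios the exact two-sided permutation test gave p = 0.1, the smallest it can give with 3 libraries against 3, and p = 0.14 adjusted over the 7 ratios compared. Ratios to Irf4 (exact p = 0.9) and Irf8 (exact p = 0.6) overlapped between the groups. The design cannot reach an exact p at or under 0.05.

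**Figure D3:**
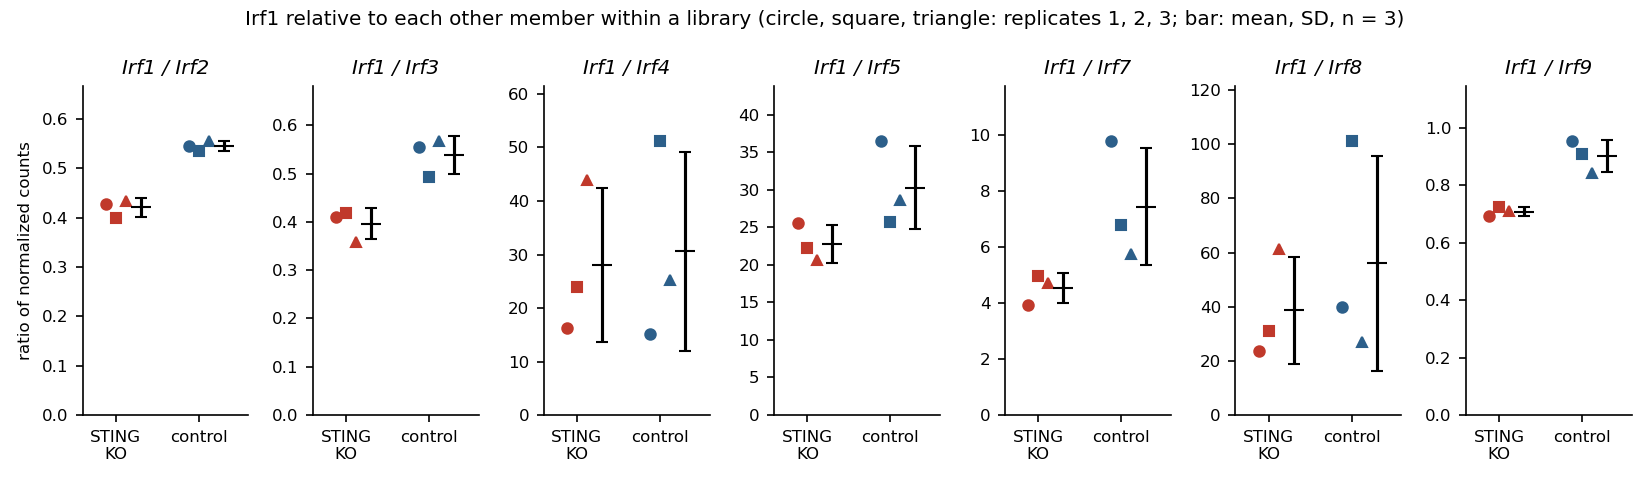
Ratio of the normalized counts of Irf1 to those of each other member within a library (vertical axes, each from 0), with mean and SD of 3 libraries. STING KO lies below control without overlap for Irf2, Irf3, Irf5, Irf7 and Irf9, and the groups overlap for Irf4 and Irf8.

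By likeness to Irf1 over the 6 libraries, the nearest genes were Csf1, Vmp1, Oma1, Gypc and Fgf7. Likeness was the root mean square difference of log2 values centred on the control mean, among genes with a mean of at least 50 normalized counts. This measure picks genes whose STING KO level stands to control about as that of Irf1 does. A decrease of similar size in the genes named is thus set by the selection and is not a separate result. These 5 differed from Irf1 by 0.0560, 0.0568, 0.0577, 0.0595 and 0.0630, against a median of 0.336 over all genes compared. Csf1, the macrophage growth factor gene, was at 11220, 10790 and 10194 normalized counts in STING KO libraries, against 14877, 14717 and 15246 in control libraries. Its log2 fold change was -0.48 (SE 0.05, limma adjusted p = 0.0019). Without both libraries that hold hepatocyte transcripts its limma adjusted p was 0.0879, that of Vmp1 0.231, that of Gypc 0.353 and that of Fgf7 0.9995, so none of these calls was kept there. That fit has 2 samples per group. In the same order its log2 fold changes were -0.50, -0.44, -0.54 and -0.40, against -0.48, -0.42, -0.51 and -0.45 with all libraries.

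Vmp1, an endoplasmic reticulum protein gene needed for autophagy, was at 2111 ± 8.48 in STING KO and 2825 ± 85.7 in control (SD, n = 3 each; limma adjusted p = 0.00348). Gypc, which encodes glycophorin C, and Fgf7, a growth factor for epithelium, were called lower too, with log2 fold changes of -0.51 and -0.45. Each of these 2 lost its call in 3 of 6 fits that left out 1 library, with limma adjusted p up to 0.157 and 0.241, and Vmp1 in 1 of 6, at 0.0552. Oma1, a mitochondrial protease gene, had 50.8 ± 1.37 in STING KO and 73.4 ± 3.92 in control (SD, n = 3 each) and was not called (limma adjusted p = 0.34).

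Upstream of the IRF proteins, the kinases and adaptors that activate them held 1 called gene. Of 22 tested genes of this list, 1 was called lower, 0 higher and 21 were not called, against 0.258% of all tested genes called. The median log2 fold change of the list was -0.10, against -0.00 over all tested genes. Tbk1, the IRF3 kinase, averaged 719 normalized counts in STING KO and 714 in control (limma adjusted p = 0.965). Mavs, the adaptor of RNA sensing, averaged 1003 in STING KO and 1010 in control (adjusted p = 0.968), and Irak1, an IRF7 kinase of the MyD88 pathway, averaged 2868 ± 93.5 in STING KO and 3063 ± 80.9 in control (SD, n = 3 each; adjusted p = 0.738). The called gene was Tlr2, a receptor for bacterial lipoproteins, at 55.5 ± 1.74 in STING KO and 97.0 ± 10.7 in control (SD, n = 3 each; adjusted p = 0.049). Leaving out any 1 library ended the Tlr2 call, at limma adjusted p of 0.0659 to 0.328, and without both libraries that hold hepatocyte transcripts it was 0.997. The log2 fold change of Tlr2 was -0.80 with all libraries and -0.74 without both.

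Of all tested genes, 0.258% were called. Among partners and modifiers of IRF proteins, 2 of 21 tested genes were called lower, 0 higher and 19 were not called (median log2 fold change -0.05). Both are NF-kB subunits: Relb at 153 ± 5.42 in STING KO and 295 ± 35.0 in control, and Nfkb2 at 1539 ± 54.4 in STING KO and 1974 ± 50.4 in control (SD, n = 3 each; limma adjusted p = 0.0028 and 0.0241). Nfkb2 lost its call in 3 of 6 fits without 1 library, at a limma adjusted p up to 0.241, and without both libraries that hold hepatocyte transcripts, at 0.997. The log2 fold change of Nfkb2 was -0.36 with all libraries and -0.35 without both. Stat2, the partner of IRF9, averaged 593 in STING KO and 610 in control and was not called. Batf2, which can act with IRF1 in macrophages, was at 223 ± 12.6 in STING KO and 193 ± 10.4 in control without overlap, and was not called either (SD, n = 3 each; adjusted p = 0.738). These levels of Tbk1, Mavs, Stat2 and Batf2 were chosen for mention after their values were seen.

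The interferon signal that controls Irf genes showed 0 of 15 tested members called, with 14 negative signs and 1 positive sign at a median log2 fold change of -0.07. Ifnb1, the interferon beta gene that IRF3 and IRF7 switch on, was at 0 in all 6 libraries, which allows up to 3 counts in each. Jak1, a kinase of the interferon receptors, averaged 3922 ± 163 in STING KO and 4066 ± 212 in control (SD, n = 3 each; limma adjusted p = 0.792). Stat3 came nearest to a call, with 1991, 2071 and 1886 normalized counts in STING KO libraries, against 2534, 2398 and 2527 in control libraries (adjusted p = 0.0554). The authors' deposited table calls 1 member of this list lower. In limma at an unadjusted p at or under 0.05, 394 of all tested genes were lower and 397 higher.

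Target lists of the single factors gave no called member. Of 25 tested IRF1 target genes 0 were called (median log2 fold change -0.07), of 32 IRF9 target genes 0 (median -0.00) and of 8 IRF3 target genes 0 (median 0.18). B2m, the light chain of MHC class I, averaged 10867 ± 435 in STING KO and 10565 ± 577 in control (SD, n = 3 each; limma adjusted p = 0.818), and Tapbp, the peptide-loading factor tapasin, averaged 2561 ± 81.2 in STING KO and 2740 ± 47.0 in control (adjusted p = 0.738). Samhd1, a dNTP hydrolase, averaged 1574 ± 78.1 in STING KO and 1699 ± 45.4 in control, and Ifit2, an interferon-induced RNA-binding protein gene, averaged 385 ± 44.7 in STING KO and 375 ± 24.9 in control (SD, n = 3 each; adjusted p = 0.738 and 0.924).

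In 6 of the 25 IRF1 target genes the STING KO libraries lay wholly below control, against 6.32% of all tested genes, and in 1, Casp1, wholly above, against 5.76% of all tested genes. They included Nos2, Gbp2, Nlrc5, Vcam1 and Tapbp, named after their values were seen. Nos2, the inducible nitric oxide synthase gene, had 21.8, 12.9 and 25.1 normalized counts in STING KO libraries, against 45.9, 45.9 and 49.7 in control libraries (limma adjusted p = 0.155). Vcam1 also stands in the NF-kB list. Without STING KO replicate 3, 1 member of this list was called.

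**Figure D4:**
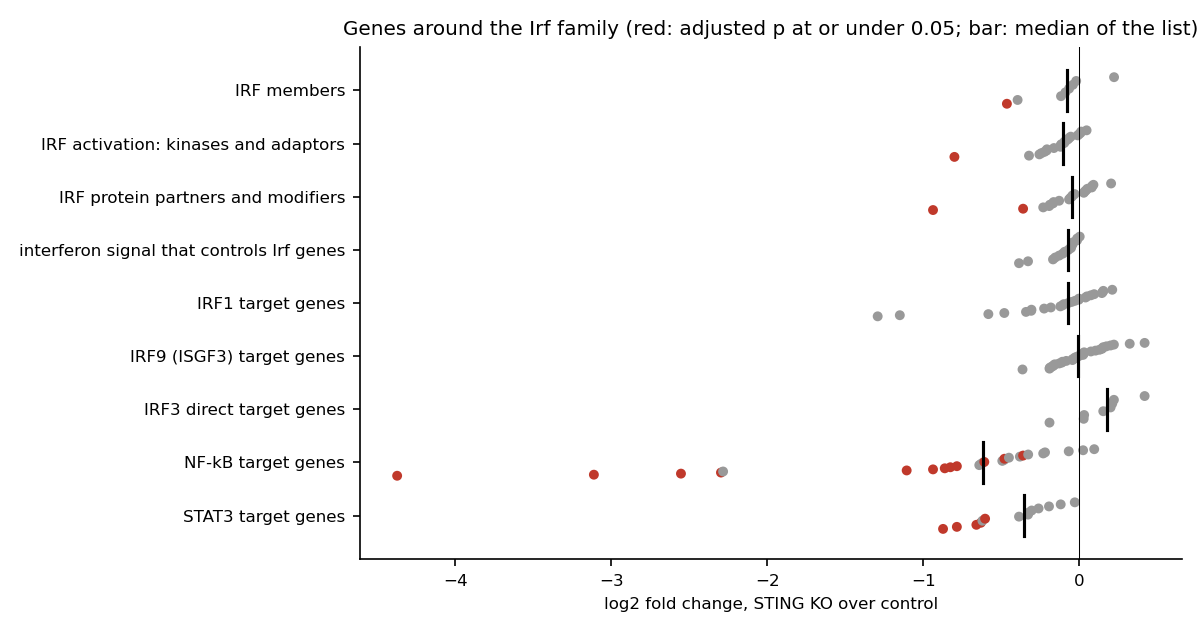
log2 fold change, STING KO over control (horizontal axis), of each tested gene in the Irf family and in 8 lists around it, with called genes in red and the list median as a bar. Called genes lie mostly in the NF-kB and STAT3 lists, with medians of -0.61 and -0.36, and the other lists have medians from -0.10 to 0.18.

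NF-kB and STAT3 target genes held called members, against 0.258% of all tested genes called. Whether these factors have a part in the Irf1 difference was not tested. The lists were chosen with earlier results of these data known, so the counts below describe them and are not a test. Lif and Bcl3 stand in both lists, and Relb and Nfkb2, given above as partners, stand in the NF-kB list too. Stat3, given above with the interferon signal, stands in the STAT3 list too. Of 26 tested NF-kB target genes, 12 were called lower, 0 higher and 14 were not called, at a median log2 fold change of -0.61. The strongest were the chemokine gene Cxcl1, at 4.91% of control, and Ccl2 and Ccl7, at 11.6% and 17.0%, with the cytokine gene Il6 at 20.2%. Irf1, at 72.5%, was thus a small change beside them. Of 14 STAT3 target genes, 5 were called lower, 0 higher and 9 were not called, with 14 of 14 negative signs and a median of -0.36. They included Cebpd, a C/EBP factor gene, at 54.7% of control, Junb, an AP-1 subunit gene, at 63.4%, Osmr, a receptor chain for oncostatin M, at 64.7%, and Lif, a cytokine gene of the interleukin-6 family, at 57.8%. Without both libraries that hold hepatocyte transcripts 8 NF-kB target genes and 1 STAT3 target gene were called, where 12 of 12203 tested genes were called. The limma adjusted p in that fit were 0.0534 for Junb, 0.139 for Osmr and 0.811 for Lif. In the same order the log2 fold changes there were -0.68, -0.58 and -0.68, against -0.66, -0.63 and -0.78 with all libraries. Lif lost its call in 4 of 6 fits without 1 library, at a limma adjusted p up to 0.221.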

How the data were processed

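Poly(A) RNA of 6 L929 samples was sequenced. The authors deposited 1 gene table whose sample columns hold a signal, gene counts divided by a size factor per sample; in each column 100% of values above 0 were whole multiples, within 0.01, of the smallest. Per the file headers it also holds the authors' log2 fold change, a standard error and Wald score, and p-values. Per the submitters' processing notes, DESeq2 1.4.5, RSEM 1.2.12, Bowtie2 2.2.5 and HISAT2 2.0.4 were used, with no role or order named, and the builds are GRCm38 and mm10. Annotation and strand use are not stated there.

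The first row of each identifier was used (314 repeats dropped). Genes reaching a value of 10 in 3 or more samples were tested on log2(value + 0.1) with limma 3.58.1 (R 4.3.3), using its trend option and no covariate. The fit was tested on simulated data. Fold changes are on that scale. For low genes they can be smaller or larger than the deposited ones, as for Irf4 (-0.39 against -0.47) and Irf7 (0.22 against 0.20). Intervals are limma's; the limit behind a 0 covers counting error only. Ratios used exact permutation tests (SciPy 1.17.1). Gene models are GENCODE M21 and upstream sequences RefSeq's. Replicate numbers were not taken to pair the samples, because the labels name no pairing.

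The members and lists were chosen with earlier results of these data known. Named genes are the members, Sting1, the 5 nearest Irf1 and up to 4 called genes per list. Where fewer than 2 were called, the 2 highest of the list were added. Genes that overlap a member, and Ptprc, Spi1, Ms4a1, Dcn, Lum, Col1a1, Casp1, Bcl3 and Ifnb1, were named outside this rule. Other additions are marked. Of the kinase and adaptor list 24 of 25 symbols matched, and of the hepatocyte list 13 of 14. Lymphocyte markers (4 tested) and the other marker lists had 0 members called. The test planned in case the values were counts (edgeR) was not run, because the values are normalized. DESeq2 was not run either. Some genes of the lists are not reported here by name.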

Additional observations from a re-analysis of the deposited data

How the results depend on the processing

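Of 111 values of the 8 genes under an alternative, 96 kept both sign and call status, 9 changed sign and 6 lost the call. The 6 are Irf1: its log2 fold change stayed at -0.46 with the replicate block (adjusted p = 0.293), where 18 genes were called lower and 0 Irf members, and at -0.45 without both libraries with hepatocyte transcripts (0.811), where 12 genes were called lower and 0 Irf members. The labels name no pairing by replicate number, and deviations of samples with the same number had correlations of -0.183, -0.18 and -0.488. So few libraries cannot decide whether the samples were paired. Leaving out 1 library gave 21 to 35 genes lower, 0 to 2 higher, 0 to 1 Irf members called, and log2 fold changes of -0.49 to -0.44 for Irf1. The authors' deposited test has 6 genes higher. Sign changes were in uncalled members: Irf3 was 0.00 (0.0018) with upper-quartile scaling, Irf5 was 0.067 without both libraries, and leaving out 1 library gave log2 fold changes of -0.094 to 0.020 for Irf3, -0.88 to 0.043 for Irf4, -0.18 to 0.031 for Irf5 and -0.61 to 0.35 for Irf8. The ratio of Irf1 to Irf4 had a log2 difference of 0.22 without both libraries and -0.48 to 0.39 without 1 library, and that to Irf8 -0.84 to 0.12 without 1 library. The cause was not tested. The kinase and adaptor list kept its 1 call with a pseudocount of 1 and in no other alternative. No count test was run on recovered reads. Irf4, Irf5, Irf7 and Irf8 were not tested under the stricter minimum on the mean, and Irf4 and Irf8 not in some fits with fewer libraries. With the replicate block Csf1, Vmp1, Gypc, Fgf7 and Nfkb2 were not called (adjusted p = 0.0567, 0.157, 0.184, 0.355 and 0.41). Over control libraries the coefficient of variation was 58.7% for Irf4, 14.4% for Irf5 and 58.1% for Irf8, against 23.6%, 26.5% and 31.2% from counting alone. The alternatives for genes outside the family and for list counts were added after the data were seen.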
